A study of Mus musculus with 6 samples.

Results

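The mitochondrial ribosomal proteins form the protein part of the ribosome inside mitochondria. The genes described here are those whose symbol begins with Mrps or Mrpl followed by a digit, which are the names of the small and the large subunit. There were 78 of them among the 16516 genes of the table, 29 named for the small subunit and 49 for the large. All 78 passed the filter on low counts, which left 13151 genes to test. Counts of a single gene in a single sample ranged from 71 to 723.

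The mitochondrial ribosome translates the few messenger RNAs that the mitochondrial genome encodes, all for subunits of the respiratory chain and ATP synthase. Its RNA is made in the mitochondrion, whereas its proteins are encoded in the nucleus, made by cytosolic ribosomes and imported. Many have a bacterial counterpart, and others occur only in mitochondrial ribosomes.

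RNA-seq was performed on CD11b+ cells, which were drawn from the cortex with magnetic beads and are labelled as microglia. The donors were male C57BL6/J mice aged 8 to 10 weeks. NS mice had received normal saline and 4LPS mice LPS (lipopolysaccharide of Escherichia coli) at 500 µg/kg, each given intraperitoneally on 4 successive days, and cells were taken on day 7, counted from the first injection. Each group had 3 samples, and each sample pooled 2 mice. The question asked of these genes is whether their mRNA levels differed between 4LPS and NS cells, and whether the 2 subunits differed alike.

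Total counts were 15158342 to 15746606 in NS and 15164123 to 15462396 in 4LPS. Defining markers of microglia were abundant in all 6 samples, with a summed level of 46770 to 49340 CPM (counts scaled to one library total after TMM normalization) in NS and 45740 to 46320 CPM in 4LPS, and 1 of 10 was lower in 4LPS (P2ry12). The microglia sums of all 4LPS samples lay below those of all NS samples, 7 of the 10 had an unadjusted p under 0.05, and the median log2 fold change of the 10 was -0.16. Of 14 markers of natural killer cells, 13 were higher in 4LPS, and their sum was 9.13 to 14.8 CPM in NS and 122 to 139 CPM in 4LPS. The 8 choroid plexus markers summed to 6624, 5757 and 659 CPM across the NS replicates, in order, and to 2235, 2.52 and 537 CPM across the 4LPS replicates. None of the 8 passed the test, and NS replicates 1 and 2 stood apart from NS replicate 3. Markers of astrocytes (4 of 8) and endothelium (2 of 8) were lower in 4LPS, with 4 and 6 of 8 at an unadjusted p under 0.05. Over all genes tested, 9.95% were higher and 6.43% lower, so 1 of 10 microglia markers lower is near the share of all genes. No marker of these lists was at 0 in all samples. In such bulk samples, fewer cells of a type and less RNA per cell cannot be told apart, and the part of these other cells in the results below was not tested, except that the summed choroid plexus level was added to the model as an alternative given beside the results.

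Mitochondrial ribosomal protein genes differed little between the groups. At an adjusted p under 0.05 (edgeR's quasi-likelihood test, Benjamini-Hochberg adjustment over all 13151 genes), 0 of 78 were higher in 4LPS and 2 were lower, Mrpl49 and Mrps11. These 2 genes are 2.56% of the 78, whereas 16.4% of all genes tested passed, 9.95% higher and 6.43% lower. Among the 5281 genes whose mean level lay within the range of the 78 (5.95 to 42.4 CPM), 13.1% passed, 5.85% higher and 7.23% lower. Before adjustment, 9 of the 78 had a p under 0.05 in edgeR, or 11.5% against 33.7% of all genes. Of these, 1 was higher (Mrpl23; 1.28%, against 17.6% of all genes) and 8 were lower (10.3%, against 16.1%). DESeq2 and each of the other fits likewise found none higher after adjustment.

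Most of these genes had intervals that stayed close to 0. For 69 of the 78 (88.5%), the 95% interval of the difference lay within 1.5-fold in both directions, against 62.3% of all genes and 72.4% of the genes in the same range of level. The other 9 were Mrps6, Mrpl47, Mrps18c, Mrpl55, Mrps22, Mrps11, Mrps10, Mrpl14 and Mrpl52, whose intervals reached beyond 1.5-fold. Standard errors of the 78 were like those of other genes (median 0.105, against 0.102 over all genes and 0.109 in the same range of level). Their estimates were smaller, with a median absolute log2 fold change of 0.115, against 0.176 and 0.153. Log2 fold changes of 4LPS over NS ran from -0.73 for Mrps6 to 0.27 for Mrpl52, with a median of -0.08, against -0.02 over all genes tested. They were below 0 for 54 of 78 genes (69.2%), against 52.7% of all genes and 56.5% of those in the same range of level.

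**Figure D1:**
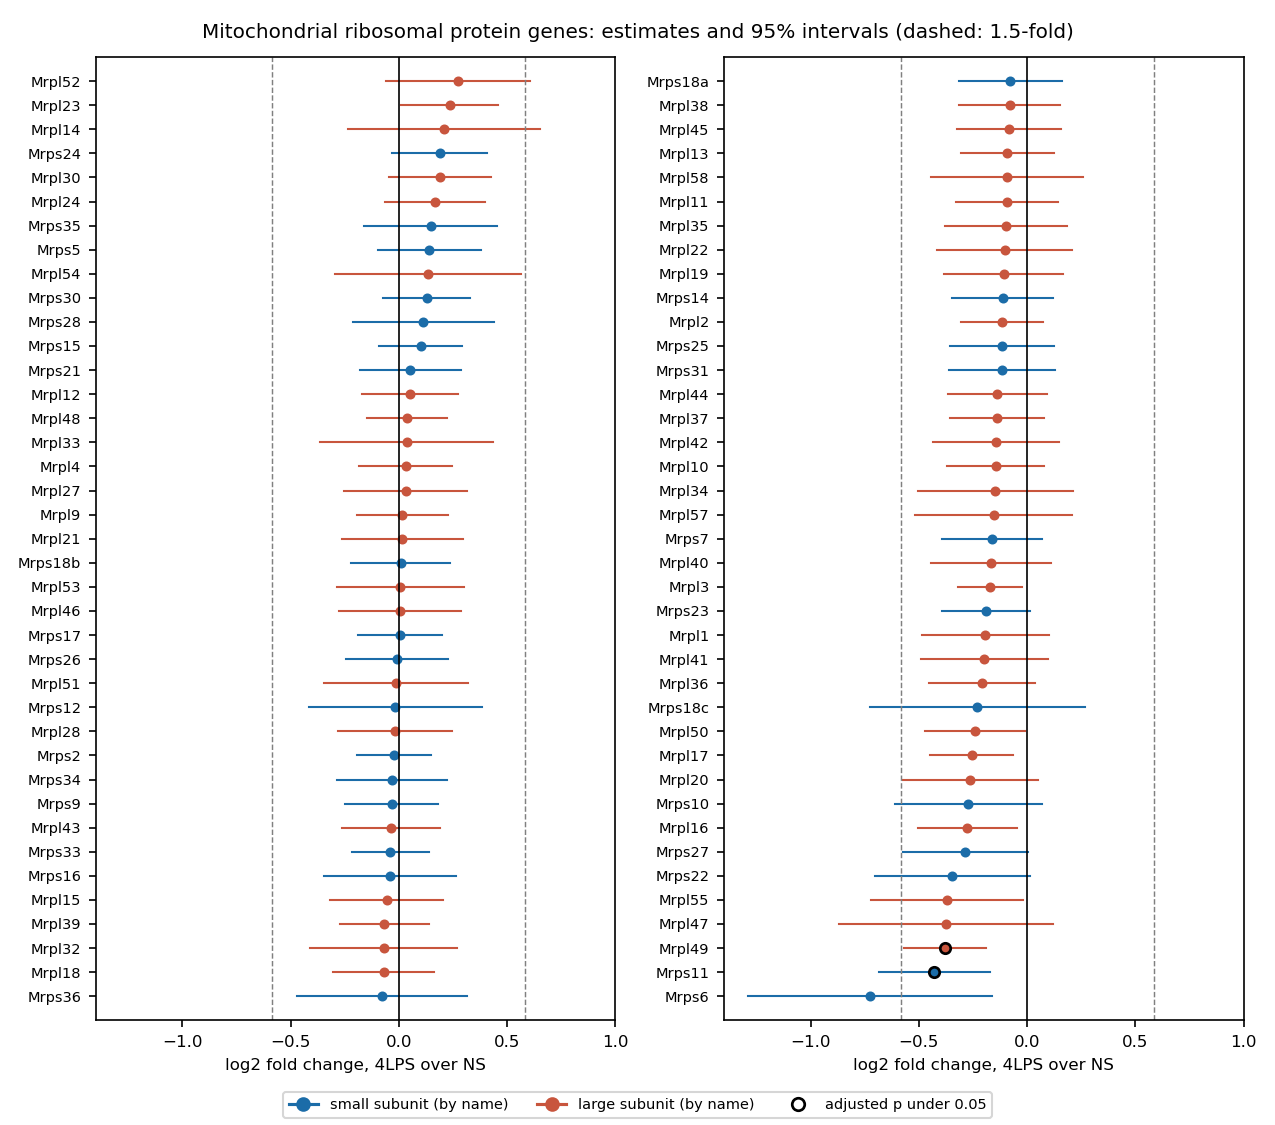
Log2 fold change of 4LPS over NS (horizontal axis) for each of the 78 genes, ordered by value, with the point as the estimate and the line as its 95% interval. Colour gives the subunit by name, dashed lines mark 1.5-fold, and black rims mark Mrpl49 and Mrps11, the 2 genes that passed the test; 69 of the 78 intervals lie between the dashed lines.

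Few of these genes separated the groups sample by sample. Groups did not overlap, meaning that every 4LPS sample lay on one side of every NS sample, for 16 of the 78 genes (20.5%), against 37.4% of all genes tested. Of these 16, 11 were lower in 4LPS (14.1%, against 17.5% of all genes) and 5 were higher (6.41%, against 19.9%).

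Mrpl49, a protein of the large subunit found in mitochondrial ribosomes and without a bacterial counterpart, was at 24.5, 24.9 and 23.2 CPM in NS and at 18.8, 19.2 and 17.8 CPM in 4LPS (replicates 1 to 3 in order, as in all that follows). All 4LPS samples were below all NS samples. Its log2 fold change was -0.38 (standard error 0.081, edgeR adjusted p = 0.0181). The gene lies at chr19:6103652-6107871 on the minus strand of GRCm39 (GENCODE) and its main transcript has 4 exons.

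Mrps11, a small subunit protein with a bacterial counterpart, was at 12.4, 11.8 and 11.5 CPM in NS and at 9.65, 8.16 and 8.75 CPM in 4LPS. Again the groups did not overlap. Its log2 fold change was -0.43 (standard error 0.11, edgeR adjusted p = 0.0361). It lies at chr7:78432867-78442739 on the plus strand of GRCm39 and has 6 exons. With DESeq2, on all 6 samples, Mrps11 did not pass (adjusted p = 0.101) and Mrpl49 did (adjusted p = 0.0289). Neither call was firm with fewer samples. Without any 1 of NS replicates 1 and 2 or 4LPS replicates 1 to 3, neither gene passed, and both passed without NS replicate 3, where Mrps6 and Mrpl20 passed as well. Leaving out a sample other than NS replicate 3 also cut the calls over all genes. These fell from 1308 higher and 845 lower to 781 to 982 higher and 363 to 557 lower. Without NS replicate 3 they rose to 1629 and 1215. With 1 sample left out, log2 fold changes were -0.407 to -0.338 for Mrpl49 and -0.489 to -0.362 for Mrps11. Neither passed with the summed choroid plexus level added to the model, an alternative chosen after the data were seen (edgeR adjusted p = 0.0586 for Mrpl49 and 0.177 for Mrps11). In that fit 822 genes of the whole table were higher and 404 lower.

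Both genes stand head to head with a neighbour, so that transcription runs outward in both directions from a short shared stretch. The genes with such neighbours were looked up after the values were seen. By the main transcripts of GENCODE, 14 of the 78 genes have such a protein-coding neighbour on the opposite strand, with fewer than 1000 bases between the start sites. Neighbours whose start lies inside the gene, or that the table lacks, were not counted. All 14 neighbours were tested. The stretches beside the 2 genes that passed are printed because each separates a gene that was lower from a neighbour that was not.
Mrpl49 to Fau, chr19:6107872-6107922, GRCm39, minus strand, 51 bases: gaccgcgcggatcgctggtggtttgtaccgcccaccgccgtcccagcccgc
Mrps11 to Mrpl46, chr7:78432838-78432866, GRCm39, plus strand, 29 bases: ccatgaggcaacgcgggccggcgaggggc

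Across the 51 bases from Mrpl49 lies Fau, which encodes a protein of the cytosolic small subunit fused to a ubiquitin-like protein. Fau was at 212, 238 and 196 CPM in NS and at 490, 481 and 524 CPM in 4LPS. Its level rose by 1.21 on the log2 scale (standard error 0.076, edgeR adjusted p = 6.3e-05), while that of Mrpl49 fell. Across 29 bases from Mrps11 lies another gene of the set, Mrpl46, a large subunit protein. Mrpl46 was at 8.25, 8.55 and 9.30 CPM in NS and at 8.36, 8.29 and 9.56 CPM in 4LPS, so its groups overlapped. The log2 fold change of Mrpl46 was 0.01 (95% interval -0.27 to 0.29, edgeR adjusted p = 0.973), and its sign turned with the scaling. The difference between the 2 genes of a pair was not tested.

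A further pair is that of Mrpl41, a large subunit protein, and Pnpla7, a lysophospholipase, which lie 100 bases apart. Pnpla7 was at 230.1, 244 and 225 CPM in NS and at 348, 336 and 363 CPM in 4LPS and rose by 0.58 on the log2 scale (edgeR adjusted p = 2.67e-04). Mrpl41 was at 10.6, 12.2 and 9.42 CPM in NS and at 8.97, 9.58 and 9.49 CPM in 4LPS, with a log2 fold change of -0.20 (edgeR adjusted p = 0.304) and overlapping groups. Of the 14 neighbours, 2 rose (Fau and Pnpla7) and 1 fell (Mrps11, counted as the neighbour of Mrpl46), where 9.95% of all genes tested were higher and 6.43% lower, so the count is close to that of all genes. Use of the strand in the authors' counting was not given in the sources used here, so reads from a neighbour that reach into these genes cannot be told apart.

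**Figure D2:**
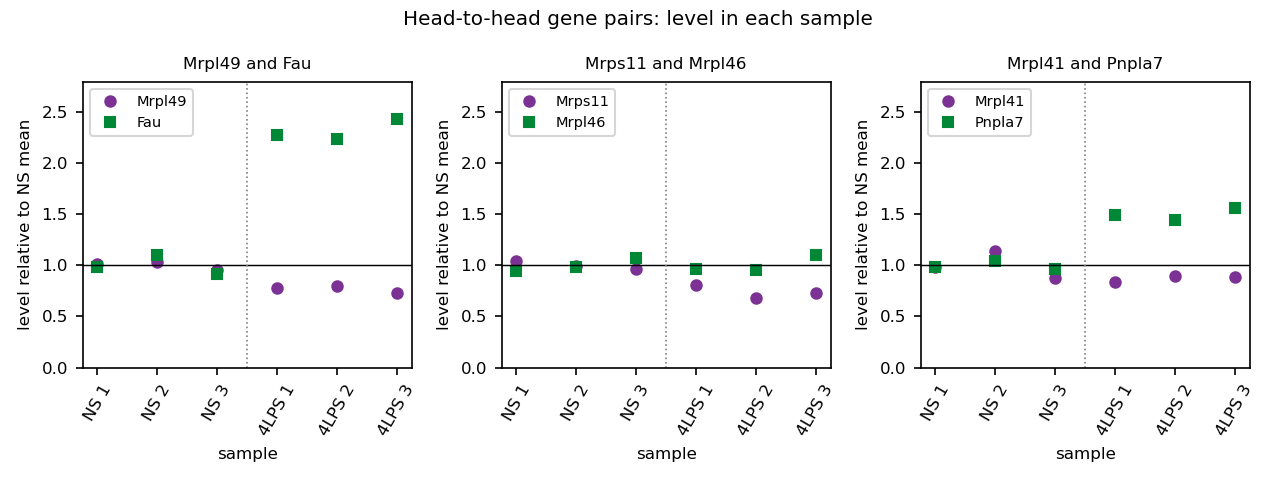
Level in each of the 6 samples divided by the NS mean of the same gene (vertical axis, linear, from 0) for 3 head-to-head pairs, with circles for the first gene of each pair and squares for its neighbour. Fau and Pnpla7 rise above 1 in all 3 4LPS samples, Mrpl49 and Mrps11 lie below 1 there, and Mrpl46 stays near 1.

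Mrps6, a small subunit protein with a bacterial counterpart, had the lowest log2 fold change of the 78 (-0.73, standard error 0.24) without passing the test (edgeR adjusted p = 0.0793). It was at 11.4, 10.2 and 6.26 CPM in NS and at 6.75, 5.17 and 4.95 CPM in 4LPS. NS replicates 1 and 2, which also held the highest choroid plexus sums, were high, and NS replicate 3 was below 4LPS replicate 1. In 4LPS, replicate 2 had the lowest choroid plexus sum (2.52 CPM), yet its Mrps6 level was above that of replicate 3, whose sum was 537 CPM. With the summed choroid plexus level in the model the log2 fold change of Mrps6 was -0.47 (edgeR adjusted p = 0.322), and without NS replicate 3 it was -0.94 (adjusted p = 0.00988). The choroid plexus sums were uneven between the groups, so a model that holds them cannot fully separate them from the treatment. The part of choroid plexus RNA in the Mrps6 difference was not tested. The gene shares its locus with Slc5a3, an inositol transporter, which was at 30.1, 25.5 and 18.8 CPM in NS and at 19.5, 19.0 and 16.1 CPM in 4LPS (log2 fold change -0.45, edgeR adjusted p = 0.113).

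Further genes stood near the threshold and were chosen after their values were seen. Mrpl17, Mrpl16 and Mrpl3, all large subunit proteins with a bacterial counterpart, had log2 fold changes of -0.26, -0.28 and -0.17 (edgeR adjusted p = 0.0699, 0.0971 and 0.104), and in each the groups did not overlap. Without a composition factor all of these passed, but there the median of all genes was itself at -0.11. Mrpl23, a large subunit protein at the exit of the peptide tunnel, was at 17.4, 15.5 and 14.4 CPM in NS and at 18.9, 18.3 and 18.5 CPM in 4LPS. All 4LPS samples were above all NS samples, with a log2 fold change of 0.24 (edgeR adjusted p = 0.132).

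The levels of the 78 genes were compared with one another as FPKM, which divides by an effective gene length. Their medians were 18.04 FPKM in NS and 16.3 FPKM in 4LPS, above the medians of all genes tested (10.1 and 9.26 FPKM). Over all 6 samples the small and the large subunit had medians of 16.8 and 17.2 FPKM. Subunits of the respiratory chain had a median of 71.8 FPKM and cytosolic ribosomal proteins one of 573 FPKM.

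The highest levels were those of Mrpl52, Mrps21, Mrpl24 and Mrpl42. Mrpl52, a large subunit protein without a bacterial counterpart, was at 102.3 ± 14.1 FPKM in NS and 119.9 ± 20.01 FPKM in 4LPS (SD, n = 3 samples per group). Its estimated length was 137 bases. This is the effective length by which FPKM divides, not the full length of the transcript, so its level per length rests on a small divisor. Mrps21 (67.3 ± 5.08 and 66.9 ± 7.32 FPKM), Mrpl24 (61.7 ± 4.19 and 65.3 ± 7.42 FPKM) and Mrpl42 (49.3 ± 7.85 and 41.6 ± 1.598 FPKM) followed. None of these passed the test (edgeR adjusted p of 0.22 to 0.745).

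The lowest were Mrpl17, Mrpl19, Mrpl35 and Mrps25. Mrps25, a small subunit protein without a bacterial counterpart, was at 2.43 ± 0.189 FPKM in NS and 2.09 ± 0.163 FPKM in 4LPS (SD, n = 3 samples per group). These 4 genes are long, with estimated lengths of 3413 to 6428 bases, against a median of 785 bases for the 78. In CPM, which are not divided by length, Mrpl17 was at 24.2 on average and so above the far shorter Mrpl52 at 14.998.

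**Figure D3:**
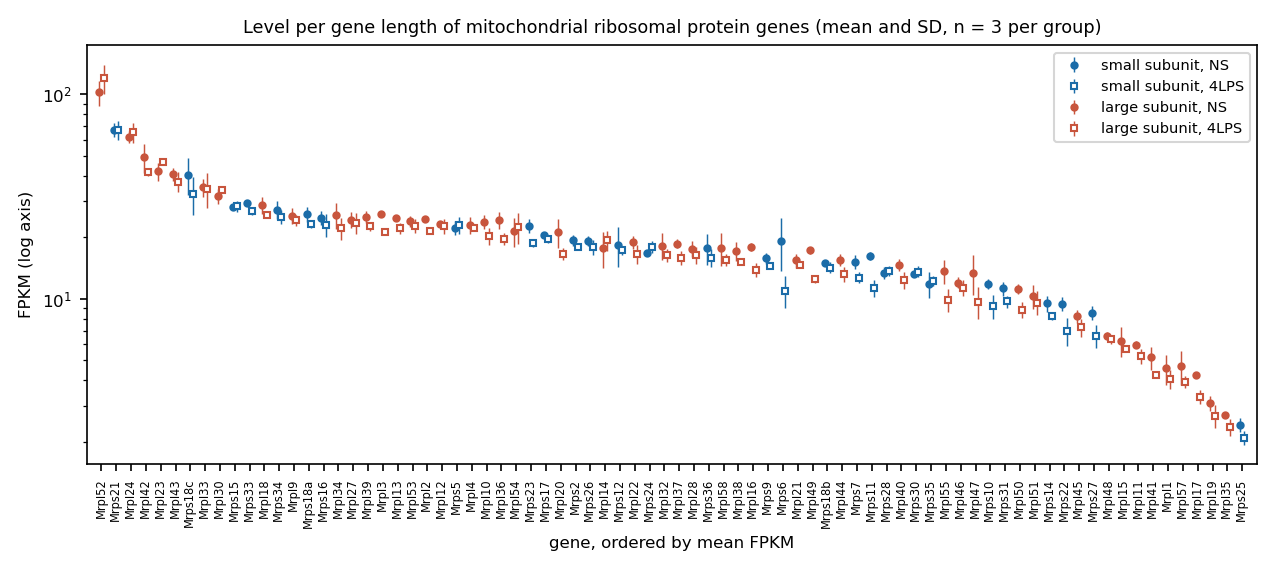
Level in FPKM (vertical log axis) of the 78 genes in order of their mean over all samples, with filled circles for NS, open squares for 4LPS and lines for the SD over 3 samples per group. The medians are 18.04 FPKM in NS and 16.3 FPKM in 4LPS, with Mrpl52 at the top and Mrps25 at the bottom.

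The summed level of the set was 1235, 1234 and 1196 CPM in NS and 1173, 1166 and 1163 CPM in 4LPS. The 4LPS samples were all lower, by a small margin, with means of 1222 ± 22.4 and 1167 ± 5.22 CPM (SD, n = 3 samples per group). For the small subunit the sum was 422, 419 and 413 CPM in NS and 402, 404 and 399 CPM in 4LPS. For the large subunit it was 813, 816 and 783 CPM in NS and 772, 762 and 764 CPM in 4LPS. The ratio of large to small was 1.92 ± 0.0266 in NS and 1.91 ± 0.0199 in 4LPS, and its groups overlapped. An exact permutation test of 3 samples against 3 cannot give a two-sided p below 0.10, so these sums are given without a test. Median log2 fold changes were -0.04 for the small and -0.09 for the large subunit, a difference of 0.0522 that was 0.017 with a correction for gene length and -0.0176 with the choroid plexus sum in the model. The median of all 78 was -0.175 without a composition factor, -0.0336 with the choroid plexus sum in the model, -0.0405 without NS replicate 1 and -0.0487 without 4LPS replicate 3.

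Some members sit elsewhere than their names say. Mrps18a and Mrps30 belong to the large subunit in structures of the mammalian mitochondrial ribosome, and Mrps36 is a component of the 2-oxoglutarate dehydrogenase complex. With these placed by structure, 26 genes were in the small and 51 in the large subunit, and the medians were -0.04 and -0.08. Proteins grouped here as named after a bacterial counterpart had medians of -0.03 in the small subunit (15 genes) and -0.09 in the large (30 genes). Those not so grouped, among which Mrps28 was counted, had medians of -0.04 (11 genes) and -0.08 (21 genes).

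None of the genes chosen for their roles passed the test. Mrps12, of the decoding centre, had a log2 fold change of -0.02 (95% interval -0.41 to 0.38). Mrpl12, of the flexible stalk that recruits translation factors, was at 0.05 (95% interval -0.17 to 0.28), and Mrpl58, a peptidyl-tRNA hydrolase built into the large subunit, was at -0.09 (95% interval -0.44 to 0.26). The signs of Mrps12 and Mrpl12 turned under other scalings or fits. Mrps30 was at 0.13 (95% interval -0.07 to 0.33) and Mrps36 at -0.08 (95% interval -0.47 to 0.32).

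The 3 Mrps18 paralogs are related to a single bacterial protein, after which only Mrps18c is named in the current nomenclature, and take different places in the ribosome. Mrps18a was at 14.9, 15.8 and 13.2 CPM in NS and at 14.5, 13.8 and 13.4 CPM in 4LPS. Mrps18b was at 11.96, 12.01 and 12.5 CPM in NS and at 11.3, 12.6 and 12.8 CPM in 4LPS. Mrps18c was at 6.80, 9.05 and 10.2 CPM in NS and at 5.60, 8.90 and 7.66 CPM in 4LPS. In all of these paralogs the groups overlapped, with log2 fold changes of -0.08, 0.01 and -0.23, and the sign for Mrps18b turned with the scaling. Per length, Mrps18c was the highest of the paralogs in NS (40.3 ± 8.28 FPKM, SD, n = 3 samples). Mrps18a was at 26.0 ± 2.23 FPKM and Mrps18b at 14.97 ± 0.411 FPKM. This order rests on the estimated effective length, 222 bases for Mrps18c against 583 and 838 bases. In CPM Mrps18c was the lowest, with a mean over all samples of 8.03 against 14.3 and 12.2.

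Differences went with gene length to some extent. Over the 78 genes, the Spearman rank correlation of estimated length and log2 fold change was -0.33, a description over genes that share the same 6 libraries. Median log2 fold changes were -0.02 in the 26 shortest genes (137 to 657 bases), -0.06 in the next 26 and -0.12 in the 26 longest (1153 to 6428 bases). Over all genes tested within the same bounds of length, the medians were 0.03, -0.03 and -0.01. With a correction for length in each sample, the medians of these groups of 26 were -0.10, -0.06 and -0.12 and that of all 78 was -0.10, and Mrpl49 and Mrps11 still passed.

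**Figure D4:**
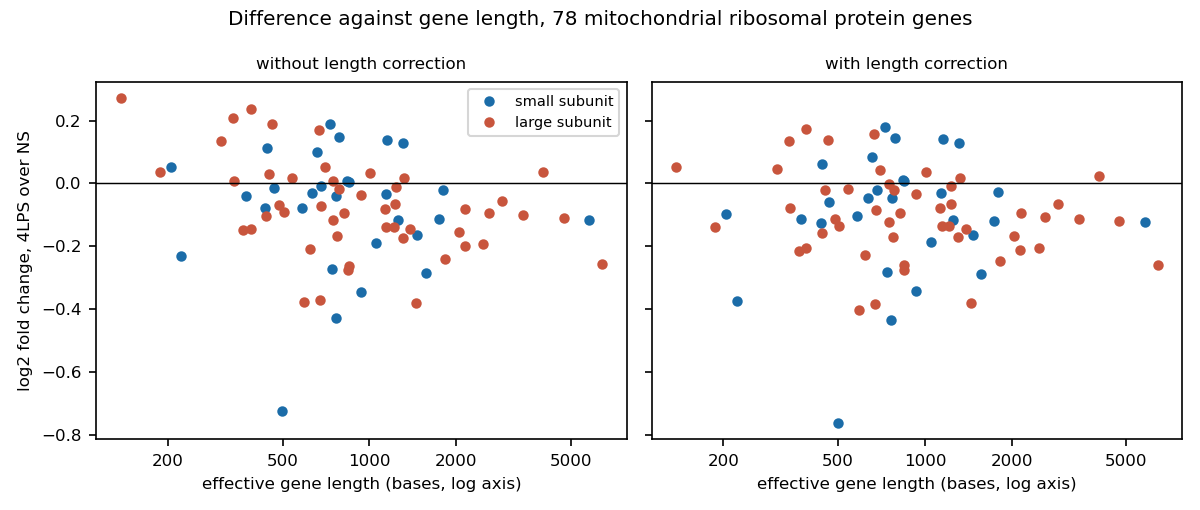
Log2 fold change of 4LPS over NS (vertical axis) against estimated effective gene length in bases (horizontal log axis) for the 78 genes, coloured by subunit, without (left) and with (right) a correction for length. Without the correction the shortest genes lie higher, with a median of -0.02 in the 26 shortest, and with it that median is -0.10.

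Few genes that work with the mitochondrial ribosome passed the test. The 5 proteins of the ribosome whose names the rule does not match gave 0 higher and 0 lower in edgeR, with 1 unadjusted p under 0.05 (Aurkaip1, named after its value was seen). Among them, Dap3, a GTP-binding protein of the small subunit, was at 24.4, 21.4 and 22.6 CPM in NS and at 25.4, 27.0 and 24.4 CPM in 4LPS (log2 fold change 0.17, edgeR adjusted p = 0.211). Gadd45gip1, of the large subunit, had a log2 fold change of 0.08 (edgeR adjusted p = 0.67), and its sign turned without a composition factor.

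Of 28 assembly factors, 14 translation factors and 22 genes of mitochondrial transcription and RNA processing, 0 passed in edgeR, with 1, 0 and 2 unadjusted p-values under 0.05. Their median log2 fold changes were 0.04, -0.02 and 0.01. Of 20 genes for mitochondrial aminoacyl-tRNA synthesis 1 was higher, Iars2, the isoleucyl-tRNA synthetase. It was at 55.3, 54.5 and 55.5 CPM in NS and at 61.9, 63.0 and 64.3 CPM in 4LPS, without overlap, and rose by 0.19 on the log2 scale (standard error 0.050, edgeR adjusted p = 0.0354). Iars2 passed in 6 of 20 alternative fits, and of the 6 fits that left out 1 sample it passed only without NS replicate 3. Over these 5 lists, 1 of 89 genes tested passed (1.12%, against 16.4% of all genes).

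Among 12 regulators tested that act on nuclear genes for mitochondrial proteins, 1 was higher (8.33%, close to the 9.95% of all genes). Ppargc1b, a coactivator, was at 3.65, 4.46 and 4.03 CPM in NS and at 7.22, 8.29 and 8.88 CPM in 4LPS and rose by 1.00 on the log2 scale (standard error 0.16, edgeR adjusted p = 0.00522). Every 4LPS sample was above every NS sample. Ppargc1a, its paralog, had a log2 fold change of -1.24 and did not pass (edgeR adjusted p = 0.236); it was named after its value was seen.

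Subunits of the respiratory chain and ATP synthase assemble with the products of the mitochondrial ribosome. Of 75, 3 were higher and 1 lower (5.33% passed, against 16.4% of all genes), with a median log2 fold change of -0.10. Atp5g2, for the membrane ring of ATP synthase, rose from 63.8, 65.5 and 56.4 CPM in NS to 83.4, 82.4 and 82.0 CPM in 4LPS (log2 fold change 0.42, edgeR adjusted p = 0.00536). Uqcrh, of complex III, and Ndufa6, of complex I, rose by 0.56 and 0.51 (edgeR adjusted p = 0.0111 and 0.0241). Ndufab1, the mitochondrial acyl carrier protein, fell by 0.33 (edgeR adjusted p = 0.0355). The groups did not overlap in any of these 4. Ndufa6 passed in 16 and Ndufab1 in 13 of 20 alternative fits, and with 1 sample left out in 3 and 1 of 6.

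Cytosolic ribosomal proteins gave another picture. Of 77 tested, 75 were higher in 4LPS and 0 lower (97.4% passed, against 16.4% of all genes), with a median log2 fold change of 0.95. Rpl23 was at 179, 194 and 185 CPM in NS and at 444, 437 and 408 CPM in 4LPS and rose by 1.21 (edgeR adjusted p = 2.77e-05). Rps16 and Rpl12 rose by 1.11 and 1.13 (edgeR adjusted p = 2.77e-05 and 3.09e-05). Many cytosolic ribosomal protein genes have near-identical copies in the genome, so the estimates of single genes are uncertain.

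Within a sample, the summed level of cytosolic ribosomal proteins was 11.2, 12.3 and 12.5 times that of the mitochondrial ones in NS replicates 1 to 3. In 4LPS replicates 1 to 3 it was 23.9, 24.2 and 25.1 times. The ratio compares 2 sums of one library and does not depend on the scaling between libraries. As a share of all counts, the mitochondrial set took 0.13%, 0.127% and 0.122% in NS and 0.114%, 0.113% and 0.111% in 4LPS.

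**Figure D5:**
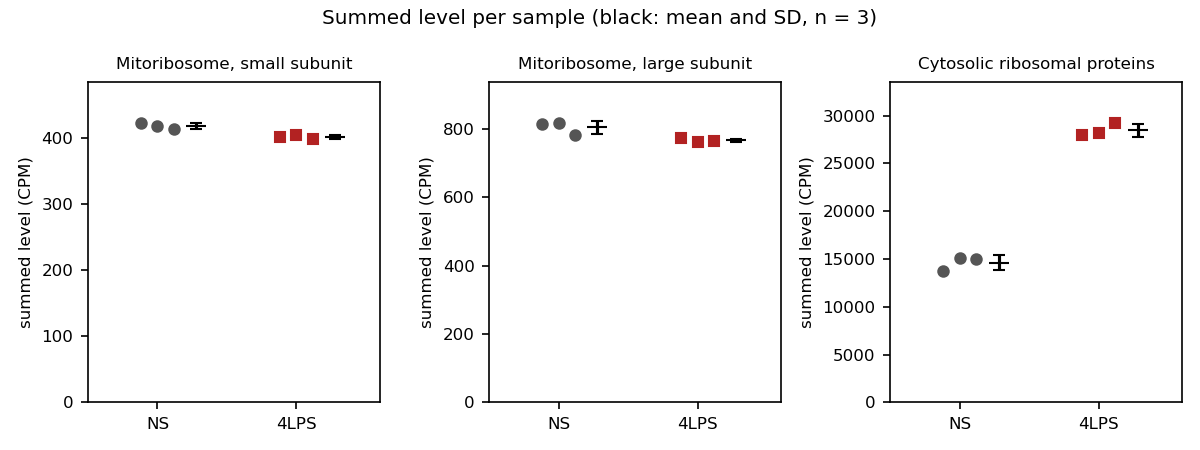
Summed level in CPM (vertical axes, linear, from 0, each with its own range) of the small and large mitochondrial subunits and of the cytosolic ribosomal proteins, with a point for each of the 3 samples per group and the mean and SD in black. The sums of both mitochondrial subunits are slightly lower in 4LPS (for example 422, 419 and 413 against 402, 404 and 399 CPM for the small subunit), and the cytosolic sum is far higher in every 4LPS sample.

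Promoters were searched because factors of the NRF1, ETS (GABP) and YY1 families are known regulators of nuclear genes for mitochondrial proteins. RefSeq promoters on GRCm38.p6, from 250 bases before to 50 bases after the start site, were at hand for 69 of the 78 genes and for 10572 of all genes tested. The letters GCGCATGC (NRF1), on either strand, were in 8 of 69 (11.6%, against 5.79% of all promoters of that length). CCGGAAGT (ETS) was in 12 (17.4%, against 8.72%) and AAGATGGC (YY1) also in 12 (17.4%, against 5.02%). At least 1 of these was in 29 of 69 promoters (42.0%, against 18.1%). With 2 more letters the NRF1 form (GC added) was in 3 of 69 (4.35%, against 2.27%) and the YY1 form (GG added) in 5 (7.25%, against 2.28%), the latter with Mrps11 but without Mrpl49. A match is a run of letters and no measured binding, and no test of these shares was made. In most of the 12 genes with the YY1 letters the match ran forward and began after the start site, from position 12 (Mrps18a) to 37 (Mrps24). In the others it stood in reverse before the start site. The YY1 letters contain ATG, the letters of a start codon, and whether a match marked a start of translation was not looked up.

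Both genes that passed, Mrpl49 and Mrps11, are among the 12 whose promoter holds the YY1 letters. The median log2 fold change of the 12 was -0.14, and that of all genes tested with these letters 0.01. The 12 include both of these genes, which were singled out by their difference in the same data. A link between the letters and the differences was not tested. The windows around the match are printed for Mrpl49 and Mrps11, and for Mrps18a, which did not pass, to show the same letters beside a start site. Capitals mark the match, which in Mrps11 stands in reverse.
Mrpl49, chr19:6057720-6057749, GRCm38.p6, minus strand: ttgaggcgccAAGATGGCagcagcggtgtt
Mrps11, chr7:78783014-78783043, GRCm38.p6, plus strand: tacgggcgccGCCATCTTtctgtcttccca
Mrps18a, chr17:46111005-46111034, GRCm38.p6, plus strand: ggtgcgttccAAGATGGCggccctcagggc
The matches begin at positions 17, -107 and 12 from the start site. On GRCm39 the match assigned to Mrps11 lies within Mrpl46, 58 bases downstream of the start site of that gene, on the far side of the shared stretch. The log2 fold changes of these genes were -0.38, -0.43 and -0.08. The holders of the NRF1 and ETS letters had medians of -0.07 and -0.02, and the holders among all genes tested medians of 0.01 and 0.02.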

How the data were processed

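RNA-seq of CD11b+ cells comprised 3 NS and 3 4LPS samples, grouped by their labels. Paired reads of 150 bases were filtered and mapped to the genome of the mouse (mm39 by the methods, mm39 and mm10 by the submitters' notes) with HISAT2 2.0.4 and Bowtie2 2.2.5. Annotation details were not given in the sources used here. Expected counts, deposited by the authors without normalization, come from RSEM 1.2.8, which divides a read among matching genes, and estimates for genes that have near-identical copies are therefore uncertain. The authors also deposited FPKM and TPM values, scaled for gene length and library total, and a normalized signal, the count divided by a size factor. TPM, the normalized signal, the authors' group means and their comparisons (DESeq2 1.16.1) were not used. The table held 0 mitochondrially encoded genes.

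Expected counts (2.77% not whole) were rounded and tested in R 4.3.3 with edgeR 4.0.16: TMM factors, filterByExpr, the quasi-likelihood F-test, and p-values adjusted by Benjamini-Hochberg over 13151 genes, at 0.05. Log2 fold changes are 4LPS over NS. P-values measure the spread between 3 pools of mice per group. Gene length was derived from counts and FPKM, and so is the effective length by which FPKM divides, not the full length of the transcript. The tests were checked on simulated data. Gene positions are GRCm39 (GENCODE), promoters RefSeq (GRCm38.p6). Motifs were searched as 8 letters, after forms of the NRF1 and YY1 motifs with 2 more letters had been searched, both being reported. Alternatives used limma 3.58.1 and DESeq2 1.42.0, among others given in the closing section. Named genes were those that passed, the 4 highest and 4 lowest by mean FPKM, the Mrps18 paralogs, 7 genes chosen for their roles, and from other lists up to 4 that passed, by smallest adjusted p. A gene that this rule names is not reported here. All genes and lists were chosen with earlier results of these data known. Mrps6, Mrpl16, Mrpl3, Mrpl23, Mrpl46, Mrpl41, Fau and Pnpla7 were chosen after their values were seen. Besides the lists described, markers of T cells, B cells, neutrophils, monocytes, border macrophages, oligodendrocytes and neurons and a list of cell cycle genes were counted, and their results are in the closing section.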

Additional observations from a re-analysis of the deposited data

How the results depend on the processing

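No mitochondrial ribosomal protein gene was higher in 4LPS under any alternative run. The number lower was 2, 5 without a composition factor, 1 (Mrpl49) with DESeq2, 0 with DESeq2 at the study's thresholds, 9 with limma on log2(FPKM + 1) and on log2(FPKM + 0.1), 5 without the FPKM filter, and 0 with the summed choroid plexus level as a covariate, which was added after the data were seen. Leaving out 1 sample gave 0 to 4 (0 in all but the fit without NS replicate 3). The median log2 fold change, -0.077, was -0.107 with upper-quartile factors, -0.175 without a composition factor, -0.144, -0.156 and -0.144 in the FPKM fits, -0.104 with the length correction and -0.0336 with the choroid plexus covariate. It was -0.0966 to -0.0405 with 1 sample left out, the smallest without NS replicate 1 and -0.0487 without 4LPS replicate 3. Without a composition factor the median of all genes moved from -0.0165 to -0.114, and calls over all genes from 1308 higher and 845 lower to 906 and 1711. Relative to all genes, the median of the 78 was -0.0606 and -0.0608 in these fits, and over all fits it ran from -0.0161 (choroid plexus covariate) and -0.0212 (without NS replicate 1) to -0.0947 (without NS replicate 3). The small minus large difference of medians, 0.0522, was 0.017 with the length correction, -0.0176 with the choroid plexus covariate and 0.0089 to 0.0703 with 1 sample left out.

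The labels do not say whether replicate numbers pair samples, and this could not be settled here. Deviations of same-numbered samples from their group means correlated at 0.473, -0.262 and 0.0663, the first being the highest of all pairs. NS replicate 3 correlated best with 4LPS replicate 2 (0.468). Deviations within a group sum to 0, so these correlations are not independent of one another. With the number as a replicate block, 3 genes were lower (Mrps6 added), and with the length correction also 3, with a median of -0.104 and a small minus large difference of 0.0131.

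Genes of the 5 other mitochondrial translation lists gave 1 higher and 0 lower. The higher count was 0 with upper-quartile factors, without a composition factor, with DESeq2, in all FPKM fits, in both block fits and with the choroid plexus covariate, and 0 to 2 with 1 sample left out. The lower count was 2 without a composition factor, 6, 6 and 3 in the FPKM fits, and 0 to 1 with 1 sample left out.

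Signs turned for genes near 0. Without a composition factor, Gadd45gip1 was at -0.0206, Mrpl12 at -0.0434, Mrpl46 at -0.0911, Mrps18b at -0.0887 and Mrps21 at -0.0451. In the FPKM fits (pseudocount 1, then 0.1; without the filter as for 1) the same genes were at -0.0149 and -0.0163, -0.0362 and -0.0378, -0.0759 and -0.0818, -0.0695 and -0.0738, and -0.011 and -0.0111. Upper-quartile factors gave -0.0224 for Mrpl46 and -0.0201 for Mrps18b. The length correction gave -0.00143 for Mrpl46 and -0.0968 for Mrps21, and with the replicate block -0.00129 and -0.097. Mrps12 was at 0.00951 with limma-voom, 0.00221 with the replicate block and 0.0845 with the choroid plexus covariate, under which Mrps18b was at -0.0464. With 1 sample left out, ranges crossed 0 for Mrpl12 (-0.0103 to 0.116), Mrpl46 (-0.0522 to 0.0602), Mrpl58 (-0.21 to 0.0706), Mrps12 (-0.158 to 0.161), Mrps18b (-0.0151 to 0.0725) and Mrps36 (-0.174 to 0.0608). Apart from shifts that a scaling gives all genes alike, the cause was not tested.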

Other observations

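Marker lists of other cells gave the following counts and summed levels, where 9.95% of all genes tested were higher and 6.43% lower. Of 3 T cell markers tested 3 were higher in 4LPS, and the T cell sum was 4.09 to 5.33 CPM in NS and 14.2 to 17.9 CPM in 4LPS. Of 8 neutrophil and 6 monocyte markers 0 passed in edgeR, with 2 unadjusted p-values under 0.05 in each list. The neutrophil sum was 183 to 724 CPM in NS and 475 to 1126 CPM in 4LPS, and the monocyte sum 97.1 to 185 and 119 to 221 CPM. Of 6 border macrophage markers 1 was higher (269 to 396 CPM in NS, 219 to 498 CPM in 4LPS). The 1 B cell marker tested did not pass, at an unadjusted p under 0.05 (sum 13.9 to 19.0 and 21.3 to 21.4 CPM). Of 8 oligodendrocyte markers 0 passed, with 2 unadjusted p-values under 0.05 (395 to 656 and 327 to 434 CPM), and of 6 neuron markers 0, with none unadjusted (10.6 to 11.4 and 7.29 to 8.70 CPM). The astrocyte sum was 287 to 302 CPM in NS and 210 to 242 CPM in 4LPS, and the endothelial sum 313 to 640 and 149 to 336 CPM. Of 17 cell cycle genes 3 were higher in 4LPS (17.6%, against 9.95% of all genes), with 7 unadjusted p-values under 0.05 in edgeR. The cell cycle sums were 193 to 223 CPM in NS and 234 to 260 CPM in 4LPS.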
